A study of Macaca mulatta with 136 samples.

Results

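ZFHX2, ZFHX3 and ZFHX4 are the 3 zinc finger homeobox genes of the ZFHX family, and their expression was followed across the neural retina and the RPE/choroid of the rhesus macaque eye. The 3 genes were taken by symbol from the 19422 gene identifiers measured, as ENSMMUG00000014771 (ZFHX2), ENSMMUG00000021041 (ZFHX3) and ENSMMUG00000019414 (ZFHX4), each symbol carried by a single entry. They were chosen by their location gradients, that is by how their level differed between the fovea and the other locations in each tissue and how far that differed between the tissues. Those gradients are therefore given as a description, with the standard error of the fit and no test. The ZFHX genes were tested on the difference between the tissues averaged over the 4 locations, which does not enter a gradient between locations.

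The ZFHX proteins are very large transcription factors that carry many C2H2 zinc fingers together with several homeodomains, so that a single protein combines both kinds of DNA-binding module. They are best known from the developing and adult nervous system, where they act in the differentiation of neurons. ZFHX3, also called ATBF1, is known for setting circadian rhythm in the suprachiasmatic nucleus, the brain clock that receives its light signal from retinal ganglion cells, and as a tumour suppressor. ZFHX4 is known to work with CHD4, the ATPase of the NuRD chromatin remodelling complex. ZFHX2 is known for a role in pain sensing.

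RNA was measured by poly-A selected, paired-end sequencing of punch biopsies from postmortem eyes of 2 adult rhesus macaques, called RM03 and RM04, for which the labels give no treatment or genetic change. The right eye (OD) and the left eye (OS) of each animal gave punches of 4 locations: the periphery, the nasal retina, the perimacula and the fovea with the macula around it. From each punch the neural retina was lifted off the RPE/choroid, which holds the retinal pigment epithelium and the choroid with its vessels. This made 32 libraries in 8 groups of 4 eyes. The eyes of a group come from 2 animals, so the 4 values are not 4 independent animals. The p-values measure mainly the spread between the libraries of a group, with the libraries of an eye counted as separate.

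The libraries held between 42448903 and 78574055 estimated counts. Libraries of the fovea, perimacula and nasal retina were read on 5 lanes of 2 flow cells, and those of the periphery on 2 lanes of 1 other flow cell, so the periphery and its flow cell cannot be told apart. For the ZFHX genes the counts per library were 202 to 1604 for ZFHX2, 1017 to 6714 for ZFHX3 and 627 to 8337 for ZFHX4. The median coefficient of variation between lanes of a library was 10.05% for ZFHX2, 4.26% for ZFHX3 and 4.84% for ZFHX4. On the 24 libraries read on both flow cells, the log2 ratio between the flow cells had a median of 0.037 for ZFHX2, 0.028 for ZFHX3 and 0.039 for ZFHX4. The widest range of this ratio was that of ZFHX2, from -0.358 to 0.306. The flow cell of the periphery is neither of these, and its part in the gradients was not tested.

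The tissue labels were checked against markers. The 9 rod markers were all higher in retina, with a median log2 difference of 6.44, and 7 of 8 ganglion cell markers were higher in retina, with RBPMS lower. The 4 pigment epithelium, 5 endothelial, 7 mural, 6 fibroblast and 3 melanocyte markers that were tested were all lower in retina than in RPE/choroid. ONECUT1 and ONECUT2, transcription factors of horizontal cells, were under 0.1 CPM (counts per 1000000 counts of a library, with TMM scaling) at every location of RPE/choroid. Over all genes, 87.5% of 16382 differed between the tissues in the mean over the locations, 43.9% higher and 43.6% lower in retina.

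In neural retina, all 3 genes were highest at the fovea and lowest at the periphery in each of the 4 eyes. Levels are in CPM, listed for RM03 OD, RM03 OS, RM04 OD and RM04 OS in that order. ZFHX4 measured 147, 122, 137 and 138 CPM at the fovea and 16.6, 15.3, 22.9 and 18 CPM at the periphery. The perimacular eyes gave 56.8, 46.1, 42.3 and 91.2 CPM and those of the nasal retina 42.4, 36.6, 47.9 and 48.9 CPM. The lowest foveal eye of ZFHX4 lay above the highest eye of each other location, and the highest peripheral eye lay below the lowest eye of each other location. The perimacular and nasal ranges overlapped.

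ZFHX3 measured 95.3, 95.8, 102 and 111 CPM at the foveal retina and 16.9, 14.8, 21.2 and 17 CPM at the periphery. The eyes of the perimacula gave 43.1, 44.1, 43.1 and 69.8 CPM and those of the nasal retina 39.3, 36.4, 46.7 and 45.0 CPM. The pattern was that of ZFHX4, with the fovea and the periphery each apart from the other locations and the perimacular and nasal eyes overlapping. The left eye of RM04 stood above the other eyes at the perimacula for both genes.

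ZFHX2 measured 30, 26, 23.5 and 26.6 CPM at the foveal retina and 4.22, 3.79, 3.42 and 2.42 CPM at the periphery. Perimacular levels were 11.9, 12, 7.71 and 13.1 CPM and those of the nasal retina 10.2, 11.2, 8.84 and 8.85 CPM. As for the other members of the family, the foveal and the peripheral eyes did not overlap with those of any other retinal location.

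**Figure D1:**
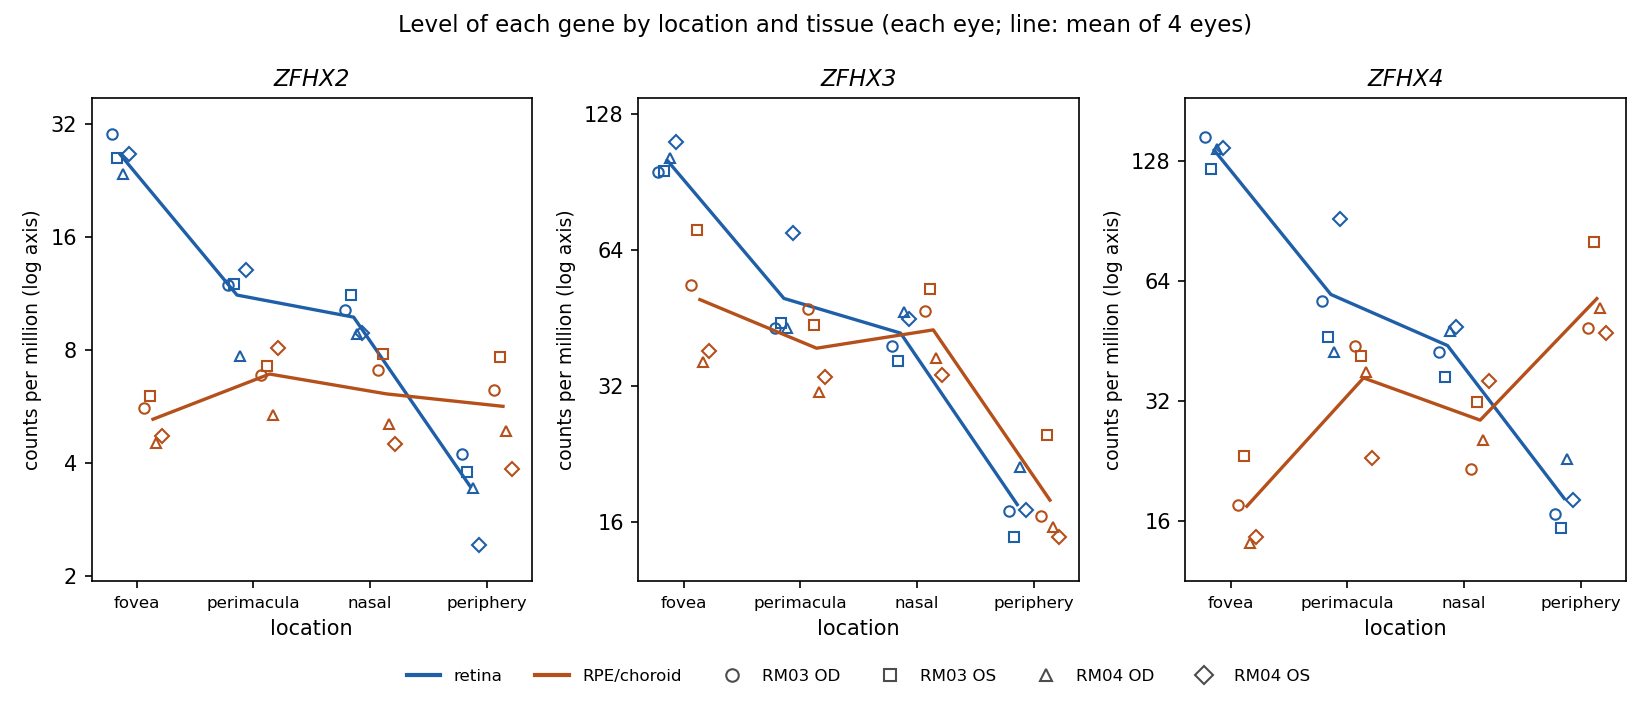
Level of ZFHX2, ZFHX3 and ZFHX4 in CPM (log axis) at the 4 locations, in retina (blue) and RPE/choroid (orange). Each symbol is an eye and the lines join the means of 4 eyes. All 3 genes are highest at the fovea and lowest at the periphery in retina, with means of 136 and 18.2 CPM for ZFHX4, whereas in RPE/choroid ZFHX2 is nearly level, ZFHX3 is lower at the periphery and ZFHX4 is higher there.

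As fold changes, the retinal fovea lay above the periphery by a log2 of 3.0 (SE 0.18, 8.03-fold) for ZFHX2, 2.59 (SE 0.14, 6.03-fold) for ZFHX3 and 2.97 (SE 0.21, 7.83-fold) for ZFHX4. The per-eye log2 differences ran from 2.77 to 3.44 for ZFHX2, from 2.26 to 2.71 for ZFHX3 and from 2.58 to 3.14 for ZFHX4. Of 15380 genes tested in retina, 205 had a higher log2 fold change than ZFHX2, 216 a higher one than ZFHX4 and 341 a higher one than ZFHX3. As the background to these ranks, 67.0% of genes passed the test between fovea and periphery, 31% higher and 36% lower at the fovea. In bulk tissue, fewer cells of a type and less RNA per cell cannot be told apart.

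The gradient had a step on either side of the perimacula. The log2 difference of fovea over perimacula was 1.30 (SE 0.17) for ZFHX2, 1.08 (SE 0.13) for ZFHX3 and 1.27 (SE 0.20) for ZFHX4, where 35.2% of all genes passed the test. Perimacula over periphery gave 1.70, 1.51 and 1.70 for the 3 genes in the same order. The nasal retina, which was sequenced on the same flow cells as the fovea, was also lower, with a log2 difference of fovea over nasal retina of 1.48 (SE 0.14) for ZFHX2, 1.32 (SE 0.12) for ZFHX3 and 1.68 (SE 0.18) for ZFHX4, positive in 4 of 4 eyes for each gene. In that comparison 52.2% of all genes passed the test. The perimacula lay above the nasal retina by a fitted log2 of 0.19 for ZFHX2, 0.25 for ZFHX3 and 0.42 (SE 0.17) for ZFHX4. The eyes differed, from RM04 OD, which was below 0 for all 3 genes (-0.18 for ZFHX4), to RM04 OS, with 0.57, 0.63 and 0.90.

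The left eye of RM04 had the smallest step from fovea to perimacula for all 3 genes. Its log2 difference was 0.59 for ZFHX4, against 1.37, 1.40 and 1.70 in the other eyes, and 0.67 for ZFHX3, against 1.12 to 1.25. The same perimacular library had the highest summed level of ganglion cell markers among the 4 perimacular retina libraries, 4818 CPM against 2211 to 3246 CPM, and the lowest summed level of rod markers, 10645 CPM against 14477 to 16553 CPM.

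Ganglion cell markers moved with the ZFHX genes in retina as a whole list. All 8 markers were higher at the fovea than at the periphery, led by the RNA-binding protein RBPMS, with a log2 difference of 4.73 (SE 0.34, adjusted p = 3.01e-07), and the transcription factor POU4F2, with 4.50 (SE 0.37, adjusted p = 7.77e-07). The median over the list was 4.09, against -0.06 over all genes tested, of which 31% were higher at the fovea. Their summed level ranged from 7828 to 8832 CPM at the fovea, from 2211 to 4818 CPM at the perimacula, from 1576 to 1832 CPM at the nasal retina and from 375 to 812 CPM at the periphery. Per eye, the summed markers had a mean log2 difference of fovea over periphery of 3.88 ± 0.53 (SD over 4 eyes), beside 2.95 ± 0.33 for ZFHX2, 2.54 ± 0.21 for ZFHX3 and 2.91 ± 0.24 for ZFHX4. The part of ganglion cell number in the retinal gradients was not tested.

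The other retinal cell types gave a mixed picture, beside 31% of all genes higher and 36% lower at the fovea. Amacrine cell markers, at 277 to 678 CPM in sum over all retina libraries, showed 2 of 7 genes higher at the fovea, close to the share over all genes. These were TFAP2A (log2 1.00) and TFAP2B (log2 0.60), both AP-2 transcription factors. All 3 horizontal cell markers were higher at the fovea, with a median of 1.98. All 9 rod markers were lower at the fovea, with a median of -2.20, and all 4 Müller glia markers were lower, with a median of -1.05. Among 6 cone markers 5 were higher at the fovea, with a list median of 1.08. Of 4 bipolar cell markers, 1 was higher and 2 were lower at the fovea, with a list median of -0.35.

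In RPE/choroid the 3 genes parted. ZFHX4 measured 17.5, 23.3, 14.1 and 14.6 CPM at the fovea and 48.8, 80.1, 54.6 and 47.2 CPM at the periphery. At the perimacula the eyes gave 44.0, 41.5, 37.7 and 23 CPM and those of the nasal location 21.6, 31.7, 25.5 and 35.8 CPM. The lowest peripheral eye lay above the highest eye of each other location, and 3 of the 4 foveal eyes lay below all eyes of the other locations. The order of ZFHX4 in this tissue was thus the reverse of its order in retina at both ends.

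ZFHX3 measured 53.4, 70.9, 36.2 and 38.2 CPM at the fovea of RPE/choroid and 16.5, 24.9, 15.6 and 14.8 CPM at the periphery. The perimacular eyes gave 47.3, 43.6, 31 and 33.5 CPM and those of the nasal location 46.9, 52.5, 37.0 and 33.9 CPM. The eyes of the fovea, perimacula and nasal location overlapped, and the periphery lay below all of them. Since the periphery was also the location on another flow cell, the place of the step and the flow cell cannot be told apart.

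ZFHX2 had low counts and hardly any gradient in RPE/choroid. It measured 5.62, 6.04, 4.52 and 4.73 CPM at the fovea and 6.25, 7.66, 4.87 and 3.86 CPM at the periphery. Perimacular levels were 6.87, 7.25, 5.36 and 8.10 CPM and those of the nasal location 7.09, 7.79, 5.08 and 4.50 CPM. The ranges of the 4 locations overlapped.

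The fovea of RPE/choroid differed from its periphery by a log2 of -0.10 (SE 0.18) for ZFHX2, 1.43 (SE 0.13, 2.70-fold higher at the fovea) for ZFHX3 and -1.75 (SE 0.18, 3.36-fold lower at the fovea) for ZFHX4. All 4 eyes had ZFHX3 higher at the fovea, by 1.21 to 1.70, and all 4 had ZFHX4 lower, by -1.95 to -1.47. For ZFHX2, 3 eyes were lower and 1 was higher. In this comparison 44.1% of 15674 genes passed the test, 21.2% higher and 22.9% lower at the fovea. Of these 15674 genes, 601 had a lower log2 fold change than ZFHX4 and 565 a higher one than ZFHX3.

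Between the fovea and the locations on the same flow cells few genes of RPE/choroid passed the edgeR test. For fovea against perimacula 0.0447% of genes did (7 genes, with 1678 at an unadjusted p under 0.05), and for fovea against the nasal location 0.361% (57 genes, with 2449 at an unadjusted p under 0.05). ZFHX4 was lower at the fovea than at the perimacula in 4 of 4 eyes, with a log2 difference of -1.07 (SE 0.18), and lower than at the nasal location in 4 of 4 eyes, with -0.75 (SE 0.21). A lower value than that of ZFHX4 was seen for 340 of 15674 genes against the perimacula and for 605 of 15789 against the nasal location. ZFHX3 showed 0.34 (SE 0.13) against the perimacula and 0.20 (SE 0.12) against the nasal location, and ZFHX2 -0.41 (SE 0.18) and -0.20 (SE 0.17).

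Between tissues, the difference of the fovea over periphery gradients, retina minus RPE/choroid, was 3.09 (SE 0.24) for ZFHX2, 1.11 (SE 0.29) for ZFHX3 and 4.67 (SE 0.34) for ZFHX4 on the log2 scale. This is the contrast closest to the choice of the genes. For ZFHX4 the eyes gave 4.62, 4.77, 4.53 and 4.62, which is a narrow range beside the mean of 4.64. Of 16284 genes, 120 had a higher value than ZFHX4, 428 a higher one than ZFHX2 and 2321 a higher one than ZFHX3, and 40.2% of all genes passed the interaction test.

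Within each eye the retina was also compared with the RPE/choroid beneath it. The retina minus RPE/choroid difference of ZFHX2 had a mean log2 of 2.34 ± 0.17 (SD, n = 4 eyes) at the fovea, 0.68 ± 0.11 at the perimacula, 0.70 ± 0.22 nasally and -0.69 ± 0.23 at the periphery. For ZFHX3 the same difference was 1.08 ± 0.54, 0.35 ± 0.54, -0.01 ± 0.46 and -0.02 ± 0.51. At the periphery ZFHX2 was lower in retina in 4 of 4 eyes, while ZFHX3 was higher in retina in 3 eyes and lower in 1.

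ZFHX4 showed the widest swing between the tissues. Its retina minus RPE/choroid difference was 2.99 ± 0.41 at the fovea, 0.67 ± 0.88 at the perimacula, 0.64 ± 0.37 nasally and -1.65 ± 0.51 at the periphery. At the fovea it was higher in retina in 4 of 4 eyes and at the periphery lower in 4 of 4 eyes.

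**Figure D2:**
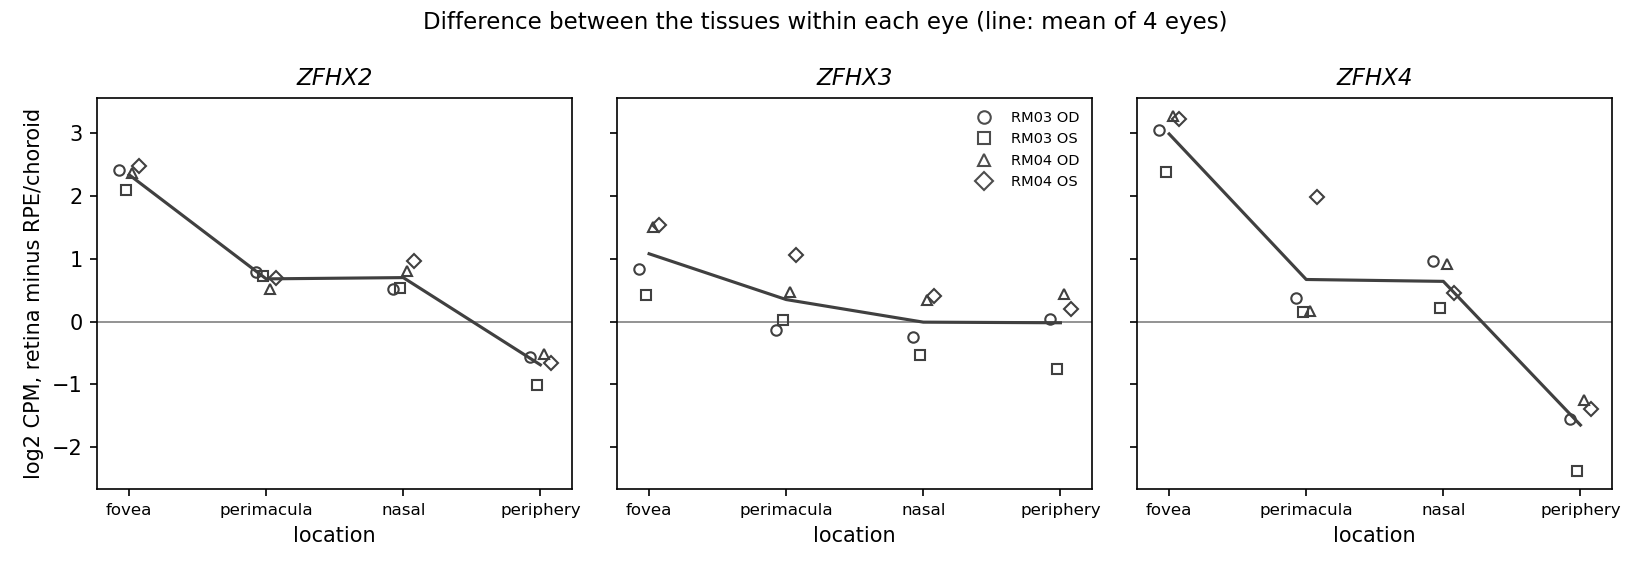
Difference between the tissues within each eye, as log2 CPM of retina minus log2 CPM of RPE/choroid, at the 4 locations. Symbols are eyes and the line joins the means of 4 eyes. Values above 0 are higher in retina, and ZFHX4 runs from a mean of 2.99 at the fovea to -1.65 at the periphery.

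Averaged over the 4 locations, a comparison that did not choose the genes, the fitted log2 difference of all 3 was positive, that is higher in retina. By edgeR's quasi-likelihood test with Benjamini-Hochberg adjustment the log2 difference was 0.76 (SE 0.08, adjusted p = 1.12e-09) for ZFHX2, higher in 4 of 4 eyes, and 0.65 (SE 0.12, adjusted p = 8.84e-06) for ZFHX4, higher in 4 of 4 eyes. For ZFHX3 it was 0.35 (SE 0.10, adjusted p = 0.00229), higher in 3 of 4 eyes. The fit counts the libraries of an eye as separate, so these SEs and p-values do not take in how the difference varied between eyes. Over the 4 eyes the mean difference was 0.76 ± 0.12 (SD) for ZFHX2, 0.66 ± 0.41 for ZFHX4 and 0.35 ± 0.48 for ZFHX3. For ZFHX3 the spread between eyes was larger than the mean, so its adjusted p does not establish a difference. For ZFHX4 the eyes ran from 0.09 to 1.07, so its adjusted p overstates how well the difference is established across eyes. The differences averaged over the locations are modest for a comparison in which 87.5% of genes passed. Of 16382 genes, 4267 had a higher log2 difference than ZFHX2. For ZFHX2 and ZFHX4 the average joins locations of opposite sign. At the periphery both were lower in retina in 4 of 4 eyes, with mean log2 differences of -0.69 and -1.65.

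The ZFHX3 difference lay in the eyes of RM04. The right and left eyes of RM04 gave 0.69 and 0.80, those of RM03 gave 0.12 and -0.21, and the eyes of RM03 alone gave a mean of -0.03 in the fit. The difference between the animals lay in both tissues. In RPE/choroid both eyes of RM03 were above both eyes of RM04 at 4 of 4 locations, by a mean log2 of 0.53, and in retina the means of RM03 were lower by a mean log2 of -0.26, with both eyes below at 3 of 4 locations. The median log2 difference between fellow eyes was 0.12 for ZFHX3 in each tissue. With 2 animals, no statement on animals in general can be drawn.

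At the nasal location alone, where 76.2% of genes passed the test between the tissues, the difference of the ZFHX genes is given as a description, since this location is part of the gradients. ZFHX2 was higher in retina by a log2 of 0.70 (SE 0.16) and ZFHX4 by 0.62 (SE 0.23), each in 4 of 4 eyes. ZFHX3 had -0.01 (SE 0.20), with 2 eyes on either side of 0.

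Over the 8 groups, ZFHX2 was ordered from the foveal retina (mean 26.5 ± 2.69 CPM), which stood apart, through the perimacular retina (11.2 ± 2.38) and nasal retina (9.78 ± 1.15), which overlapped, to the perimacular, nasal, peripheral and foveal RPE/choroid (6.90 ± 1.14, 6.11 ± 1.57, 5.66 ± 1.66 and 5.23 ± 0.724). The last of these groups overlap in sequence. The peripheral retina came last, at 3.46 ± 0.766 CPM, and did not overlap with the foveal RPE/choroid above it. Its range of 2.42 to 4.22 CPM did overlap with that of the peripheral RPE/choroid, 3.86 to 7.66 CPM.

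ZFHX3 was highest in the foveal retina, at 101 ± 7.46 CPM. Below it came 5 groups whose neighbours in the order overlapped, from the perimacular retina (50.0 ± 13.2) through the foveal and nasal RPE/choroid (49.7 ± 16.1 and 42.6 ± 8.61) and the nasal retina (41.9 ± 4.84) to the perimacular RPE/choroid (38.8 ± 7.82). The peripheral RPE/choroid (17.9 ± 4.68) and the peripheral retina (17.5 ± 2.7) were last and overlapped.

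For ZFHX4 the foveal retina stood alone at the top with 136 ± 10.3 CPM. The perimacular retina (59.1 ± 22.2) and the peripheral RPE/choroid (57.7 ± 15.3) followed with overlapping ranges, then the nasal retina (44.0 ± 5.68), the perimacular RPE/choroid (36.5 ± 9.41) and the nasal RPE/choroid (28.6 ± 6.32). The peripheral retina (18.2 ± 3.33) and the foveal RPE/choroid (17.4 ± 4.20) were last, so the lowest retinal and the lowest RPE/choroid levels of ZFHX4 were alike but came from opposite ends of the eye.

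The level of one gene relative to another is read here only across groups, since the gene lengths behind the values are not given. In retina the log2 ratio of ZFHX4 to ZFHX3 stayed between a mean of 0.43 ± 0.14 at the fovea and 0.05 ± 0.06 at the periphery. In RPE/choroid it ran from -1.49 ± 0.14 at the fovea, through -0.11 ± 0.34 at the perimacula and -0.58 ± 0.50 at the nasal location, to 1.68 ± 0.10 at the periphery. All 4 foveal eyes lay between -1.61 and -1.36 and all 4 peripheral eyes between 1.57 and 1.80, a swing seen in each eye and not shared by the retina of the same eyes.

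**Figure D3:**
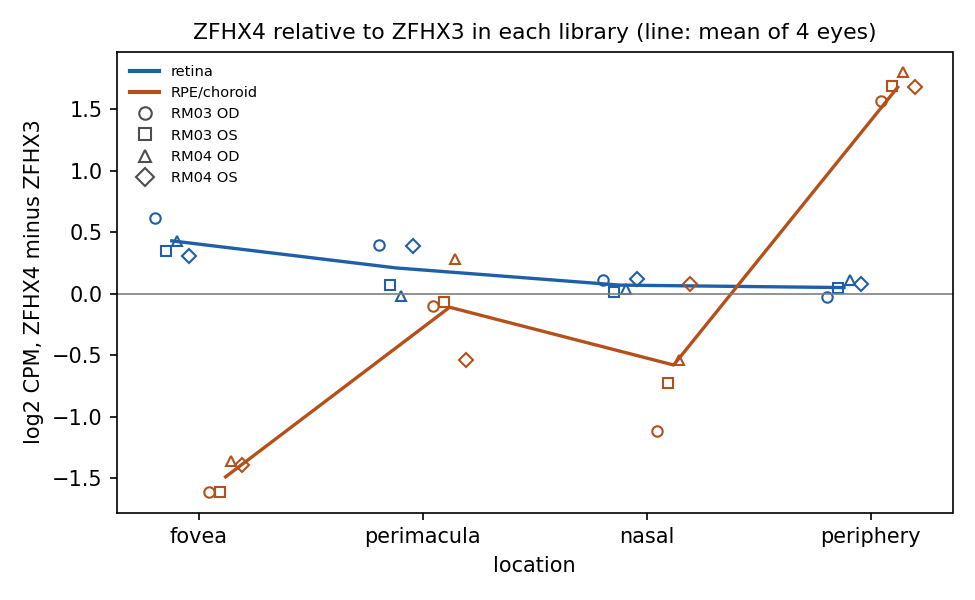
ZFHX4 relative to ZFHX3, as the difference of their log2 CPM, in each of the 32 libraries. Symbols are eyes and lines join the means of 4 eyes, with retina in blue and RPE/choroid in orange. In retina the mean runs from 0.43 at the fovea to 0.05 at the periphery. In RPE/choroid it runs from -1.49 at the fovea to 1.68 at the periphery.

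The correlations over the 16 libraries of a tissue, given as a description since locations and eyes are shared, show the same split. In retina the log2 levels of ZFHX3 and ZFHX4 had a Pearson r of 0.992, ZFHX2 and ZFHX3 one of 0.958, and ZFHX2 and ZFHX4 one of 0.955. In RPE/choroid ZFHX3 and ZFHX4 had an r of -0.574, ZFHX2 and ZFHX3 one of 0.382, and ZFHX2 and ZFHX4 one of 0.185.

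Mural cell markers moved with ZFHX3 in RPE/choroid. Of 7 markers of smooth muscle cells and pericytes, 6 were higher at the fovea than at the periphery, led by the smooth muscle myosin MYH11 (log2 3.39, SE 0.50, adjusted p = 0.000317) and the actin-binding calponin CNN1 (log2 2.99, SE 0.59, adjusted p = 0.00212). The list had a median of 1.19, against -0.06 over all genes, of which 21.2% were higher at the fovea. Their summed level ranged from 6143 to 9369 CPM at the fovea, 4253 to 5354 CPM at the perimacula, 3811 to 6086 CPM nasally and 1161 to 2619 CPM at the periphery. RM03 OS, the eye with the highest ZFHX3 at the fovea and at the periphery of RPE/choroid, also had the highest summed mural level at both. At the nasal location it had the highest ZFHX3, 52.5 CPM, with a mural sum of 4645 CPM, below the 6024 CPM of RM03 OD and the 6086 CPM of RM04 OD. In retina, where ZFHX3 was highest at the fovea, 3 of the 7 mural markers were lower there and 1 was higher, against 36% and 31% of all genes. Their sum in retina was 73.2 to 140 CPM.

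As group levels, fibroblast markers and ZFHX4 were both highest at the periphery of RPE/choroid, while the order of single eyes differed. Of 6 markers, 4 were lower at the fovea than at the periphery, led by the small proteoglycans LUM (log2 -2.32, SE 0.55, adjusted p = 0.00598, with 2 entries under this symbol and the entry used uncertain) and DCN (log2 -2.07, SE 0.36, adjusted p = 0.000907). The other 2 did not pass the test, with log2 differences of 0.07 and 0.11. The list had a median of -0.76, where 22.9% of all genes were lower at the fovea. Their summed level was 2884 to 3758 CPM at the fovea, 2411 to 5609 CPM at the perimacula, 3251 to 4777 CPM nasally and 4992 to 10023 CPM at the periphery. RM03 OS had the highest fibroblast sum and the highest ZFHX4 at the periphery. There RM03 OD had the lowest sum, 4992 CPM, with ZFHX4 at 48.8 CPM, above the 47.2 CPM of RM04 OS, whose sum was 8864 CPM. At the fovea RM03 OS had the lowest sum, 2884 CPM, and the highest ZFHX4, 23.3 CPM. RM04 OD had the highest foveal sum, 3758 CPM, and the lowest ZFHX4, 14.1 CPM. At the perimacula RM04 OS had the highest fibroblast sum, 5609 CPM, and the lowest ZFHX4, 23 CPM.

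Schwann cell markers were also higher at the periphery of RPE/choroid, with 4 of 6 lower at the fovea, against 22.9% of all genes. Their sum at the periphery ran from 1249 CPM to 11148 CPM among the eyes, a far wider spread than that of ZFHX4. Endothelial markers were higher at the fovea for 3 of 5 genes, against 21.2% of all genes. The summed pigment epithelium markers ran from 2035 to 15803 CPM at the periphery, with a mean log2 of fovea over periphery of 0.45 ± 1.05 (SD over 4 eyes). The parts of mural cells, fibroblasts, Schwann cells and pigment epithelium in the gradients of the ZFHX genes were not tested.

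**Figure D4:**
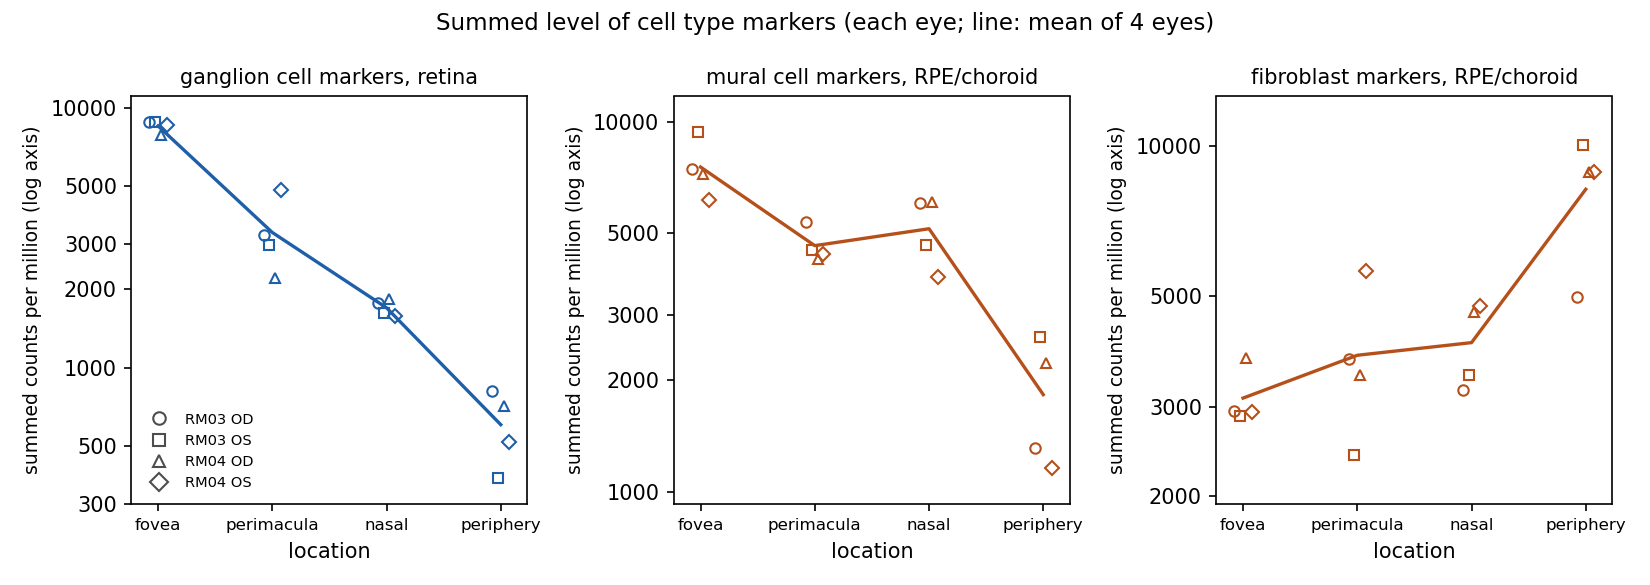
Summed level in CPM (log axis) of 8 ganglion cell markers in retina, 7 mural cell markers in RPE/choroid and 6 fibroblast markers in RPE/choroid at the 4 locations. Symbols are eyes and lines join the means of 4 eyes. Ganglion cell markers in retina and mural cell markers in RPE/choroid are lowest at the periphery, and fibroblast markers are highest there.

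Markers of retinal neurons were also read in the RPE/choroid libraries. The summed rod markers, in the order of eyes used for the levels, were 59.3, 51.1, 539 and 133 CPM at the fovea of RPE/choroid, where the retina of the same eyes had 4013, 4610, 4173 and 4472 CPM. At the periphery they were 924, 126, 213 and 691 CPM, where the retina had 25248, 28042, 23892 and 24895 CPM. RM04 OD thus stood apart at the fovea. Summed ganglion cell markers were 285 to 379 CPM at the fovea and 124 to 197 CPM at the periphery of RPE/choroid, with POU4F1 under 0.1 CPM at the fovea. Of 7 tested markers 1, RBPMS (log2 1.36, SE 0.12, adjusted p = 1.18e-05), was higher at the fovea, beside 21.2% of all genes. Of 6 tested amacrine cell markers, 3 were lower and 2 higher at the fovea of RPE/choroid. Of 4 bipolar cell markers, 2 were lower there and the others did not pass, beside 22.9% of all genes lower. The part of retinal RNA in the RPE/choroid levels of the ZFHX genes was not tested.

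The ZFHX genes belong to the zinc finger class of homeobox genes, and its other 11 members were looked at as a list. In retina, where 31% of all genes were higher at the fovea and 67.0% passed in either direction, 6 of the 11 were higher there. The other 5 did not pass the test between fovea and periphery, and the list had a median of 0.37 against -0.06 over all genes. The largest was TSHZ2, a teashirt-type factor, with a log2 difference of 2.64 (SE 0.28, adjusted p = 5.09e-06), followed by ZEB2 with 0.87, TSHZ1 with 0.76, ZHX3 with 0.44, and ZEB1 and ADNP2 with 0.37 each. TSHZ2 was a low-level gene, at 3.88 to 4.94 CPM at the fovea and 0.520 to 1.18 CPM at the periphery. TSHZ3, ZHX1, ADNP, HOMEZ and ZHX2 had values between -0.28 and 0.15 and did not pass. Apart from TSHZ2, these values are well below those of the 3 ZFHX genes.

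In RPE/choroid 9 of the 11 were higher at the fovea and the other 2, ADNP2 (-0.04) and ZHX1 (0.16), did not pass, with a list median of 0.59. ZEB1, a repressor of epithelial genes, had a log2 difference of 1.21 (SE 0.14, adjusted p = 6.53e-05), from 136 to 176 CPM at the fovea and 44.6 to 77.6 CPM at the periphery. ZHX3 had 1.05 (SE 0.16), TSHZ1 0.76 (SE 0.07) and HOMEZ 0.68 (SE 0.14). TSHZ2 had 3.13 (SE 0.96, adjusted p = 0.0222), from 0.978 to 2.99 CPM at the fovea and 0.000 to 0.563 CPM at the periphery. The share of the list that was higher at the fovea, 9 of 11, stands beside 21.2% of all genes. The direction of ZFHX3 in RPE/choroid was that of these 9 genes, and ZFHX4 had the opposite direction.

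**Figure D5:**
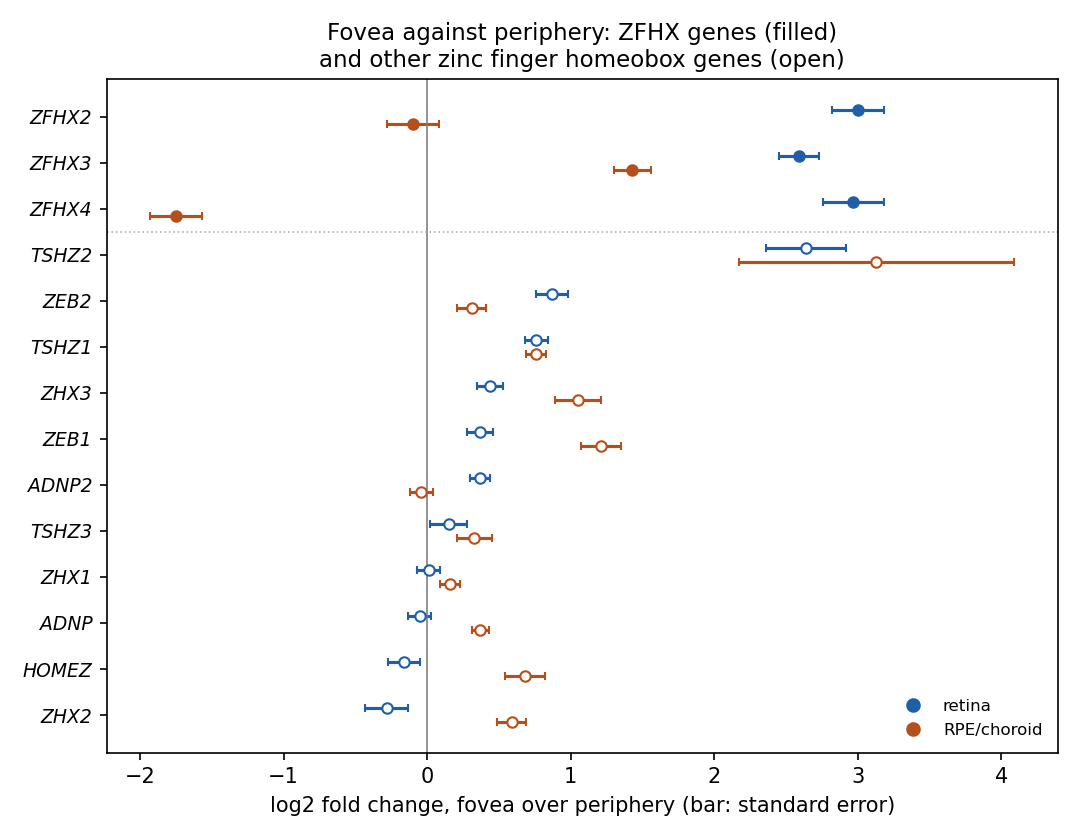
Log2 fold change of fovea over periphery in retina (blue) and RPE/choroid (orange) for the 3 ZFHX genes (filled) and the 11 other zinc finger homeobox genes (open), with bars of 1 standard error. In retina the ZFHX genes and TSHZ2 lie between 2.59 and 3.0, the other genes between -0.28 and 0.87. In RPE/choroid ZFHX4 lies at -1.75 and the lowest of the other 11 genes at -0.04.

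The difference of the gradients between the tissues was positive and passed the test for ADNP2 (0.39) and ZEB2 (0.54), and it was negative and passed for 5 genes, from ADNP (-0.44) to ZHX2 (-0.89), with a list median of -0.44, in a test that 40.2% of all genes passed. Averaged over the locations, 4 of the 11 were higher in retina and 7 lower, with a list median of -0.67, against 43.9% and 43.6% of all genes. ZHX2 (-2.43) and TSHZ3 (-2.22) were the lowest in retina relative to RPE/choroid, followed by ZEB2 (-1.97), and TSHZ2 (1.05) was the highest.

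CHD4, the known partner of ZFHX4 and named outside the rule for naming genes, did not pass between retinal fovea and periphery, with a log2 difference of -0.03 (SE 0.07, adjusted p = 0.662). In RPE/choroid it was slightly higher at the fovea, with 0.25 (SE 0.06, adjusted p = 0.00511). Of the 14 genes of the NuRD complex, 5 were higher and 4 lower at the retinal fovea, with a list median of 0.07, against 31% and 36% of all genes. The ATPases CHD5 (1.49, SE 0.18) and CHD3 (1.22, SE 0.10) were the highest at the fovea, and MTA2 (-1.39, SE 0.09) and HDAC1 (-1.35, SE 0.08, 4 entries under this symbol, the entry used uncertain) the lowest. In RPE/choroid 5 were higher and 2 lower, against 21.2% and 22.9% of all genes, with MBD2 (1.05, SE 0.07) and GATAD2A (1.06, SE 0.10, 2 entries under this symbol, the entry used uncertain) the highest. As a list, the complex had no common direction in either tissue.

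Clock genes were considered because of the role of ZFHX3 in the brain clock. Of 12 clock genes tested in retina, 9 were higher and 1 lower at the fovea than at the periphery, with a list median of 0.62, where 31% of all genes were higher and 36% lower. The heme-sensing repressor NR1D1 had a log2 difference of 1.57 (SE 0.13, adjusted p = 9.77e-07) and NPAS2, a paralog of CLOCK, had 1.41 (SE 0.11, adjusted p = 4.72e-07), while CRY1, a repressor of the core loop, was lower with -0.24 (SE 0.10, adjusted p = 0.0391). In RPE/choroid 4 of 12 were higher at the fovea and 8 did not pass, with a list median of 0.16, where 21.2% of all genes were higher. It was led by NPAS2 (0.80, SE 0.15) and NR1D1 (0.71, SE 0.09). Averaged over the locations 10 of 12 were higher in retina, against 43.9% of all genes, led by ARNTL (2.87) and RORA (2.63), and NPAS2 (-1.56) was lower.

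The peptide and receptor genes of the suprachiasmatic nucleus were scarce in these tissues, and 4 of 8 passed the filter on low counts in retina. VIP, a neuropeptide, was higher at the retinal fovea than at the periphery (log2 2.32, SE 0.76, adjusted p = 0.0173), and SST (-6.50, SE 1.27) and NMS (-1.04, SE 0.17) were lower. In RPE/choroid 7 of 8 were tested, of which GRP, another neuropeptide, was higher at the fovea (3.50, SE 0.64), and SST (-5.85, SE 1.28) and NMS (-1.52, SE 0.32) were lower. The sum of the 8 genes was 5.07 to 66.7 CPM in retina and 3.11 to 34.3 CPM in RPE/choroid. SST had a mean under 0.1 CPM at the fovea of both tissues, so the size of its log2 differences rests on almost no counts there.

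The genes most like each ZFHX gene were sought among 10391 genes, by the smaller of their Pearson correlations over the 16 libraries of retina and the 16 of RPE/choroid. This choice favours genes with the same gradients between locations, so the shared directions given here follow from it and are no separate result. ZFHX3 had the closest matches, ADCY9 (0.961), TPM1 (0.959), ASAP1 (0.959), LUZP1 (0.958) and KLF10 (0.952). ADCY9 is an adenylyl cyclase, TPM1 an actin-binding tropomyosin, ASAP1 a GTPase-activating protein and KLF10 a zinc finger transcription factor. All 5 were higher at the fovea in both tissues, by a log2 of 1.37 to 2.09 in retina and of 0.59 to 1.90 in RPE/choroid.

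For ZFHX4 the values were lower, with REEP5 (0.862), ADM (0.860), BACH1 (0.844), DEPP1 (0.841) and AASDHPPT (0.832). ADM encodes the vasodilator peptide adrenomedullin and BACH1 a heme-responsive repressor. Through this choice each of the 5 shared the signs of ZFHX4, higher at the fovea in retina and lower in RPE/choroid. ADM came nearest in size, with log2 differences of fovea over periphery of 2.32 in retina and -1.59 in RPE/choroid. AASDHPPT had 0.33 and -0.25.

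For ZFHX2 the most alike were NUAK1 (0.822), TPBG (0.817), STX6 (0.791), LRRN1 (0.785) and PRICKLE1 (0.771). NUAK1 is a kinase of the AMPK family, TPBG an oncofetal membrane glycoprotein and PRICKLE1 a planar cell polarity protein. In retina they were higher at the fovea by a log2 of 0.69 (STX6) to 2.88 (TPBG), and in RPE/choroid their differences lay between -0.23 and 0.26. Locations and eyes are shared by all genes, so these likenesses are a description of shared pattern and were not tested. With Spearman correlation, 2 of the 5 genes named for ZFHX3 were again among its 5 most alike. For ZFHX2 and for ZFHX4 it was 3 of 5 each.

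The genes next to the ZFHX genes were taken from the RefSeq annotation of T2T-MMU8v2.0, an assembly other than the one behind the values. In log2 of fovea over periphery, THTPA, whose annotated span overlaps ZFHX2, had 0.00 (SE 0.10) in retina and 0.41 (SE 0.10) in RPE/choroid. The flanking genes AP1G2 and NGDN had 0.53 and -0.44 in retina, and -0.53 and -0.48 in RPE/choroid. PSMD7, beside ZFHX3, had 0.10 in retina and -0.32 in RPE/choroid. PEX2, beside ZFHX4, had -1.19 in retina and -0.97 in RPE/choroid. Its direction was that of ZFHX4 in RPE/choroid and the opposite one in retina. Reads shared between ZFHX2 and THTPA, or coming from the opposite strand of any of these genes, cannot be told apart in the values, because the strand of the counting is not given in the sources used here.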

How the data were processed

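The authors quantified each sequencing lane with Salmon 0.13 on the Mmul_8.0.1 transcriptome and used tximport to reach gene level. The deposited values are length-scaled estimated counts, whose lane totals differ as those of counts do. The 136 lane sets were summed to 32 libraries and rounded, and 10 entries that repeat an identifier were dropped. The test was the quasi-likelihood test of edgeR 4.0.16 with the animal as covariate, TMM scaling and genes kept by filterByExpr (minimum count 10), under R 4.3.3 with limma 3.58.1, with Benjamini-Hochberg adjustment over all genes at an adjusted p under 0.05. The fovea, perimacula and periphery of a tissue were fitted together, nasal comparisons in all 4 locations, and tissue differences in joint fits. Log2 CPM used a prior count of 2. The scripts were tested on simulated data. Other steps used Python 3.11.15, numpy 2.4.6, pandas 2.3.3, scipy 1.17.1 and matplotlib 3.10.9.

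The replicate numbers pair the samples, since the labels name the eye of each library. Deviations of log2 CPM from the group means were correlated between libraries. The median was 0.56 in retina and 0.47 in RPE/choroid for libraries of the same eye. Between different eyes it was -0.38 and -0.31. Deviations from a mean of few eyes balance out, which by itself makes the values between different eyes negative. The different eyes include fellow eyes, so eye and animal are not separated here. The alternatives were DESeq2 1.42.0, RLE normalization, other low-count filters, the eye as a block, no covariate, other sets of libraries or lanes, 1 animal alone, a prior count of 0.25, Spearman correlation and leaving out each eye.

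The genes and lists were chosen with earlier results of these data known. The nasal tissue difference of the ZFHX genes, planned as a test, is given without one, since the nasal location is part of the gradients that chose them. Named are the 3 ZFHX genes, the other zinc finger homeobox genes, at most 2 called genes in each direction of other lists, and the 5 genes most like each ZFHX gene, among genes of a unique symbol and a mean of at least 1 log2 CPM in both tissues. VSX1, RDH5 and KIT were not analysed here. Where several entries carry a symbol, that with the highest mean was used. Sequences and genome coordinates were not used here.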

Additional observations from a re-analysis of the deposited data

Results flagged for a closer look

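With 4 eyes per group, 24 groups of the 3 genes were looked at for an eye far from the others, and chance gives about 1 such group in 20. Among the perimacular retina libraries, ZFHX3 stood at 69.8 CPM in RM04 OS, against 43.1 to 44.1 CPM in the other eyes, and the gap took a share of 0.963 of the group's range. The same library had the highest ZFHX2 (13.1 CPM), ZFHX4 (91.2 CPM) and summed ganglion cell markers (4818 CPM) of its group.

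Among the peripheral RPE/choroid libraries, ZFHX3 stood at 24.9 CPM in RM03 OS, against 14.8 to 16.5 CPM, with a share of 0.832. That library also had the highest ZFHX4 (80.1 CPM), summed fibroblast markers (10023 CPM) and summed Schwann cell markers (11148 CPM) of its group, and the lowest summed pigment epithelium markers (2035 CPM).

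For ZFHX4 the difference between fovea and periphery had opposite signs in the tissues, with a mean per-eye log2 of 2.91 in retina and -1.72 in RPE/choroid, 4.64 apart. Every eye was on the same side in each tissue. The difference was not tested, because it was among the values that chose the gene.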

How the results depend on the processing

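Over 29 results, 287 alternative values were computed. Of these, 9 had the other sign, 7 of them for the nasal tissue difference of ZFHX3, which was -0.01 with all eyes and lay between -0.12 and 0.19 without an eye and at 0.37 with the eyes of RM04 alone. The RPE/choroid difference of fovea over periphery of ZFHX2 was 0.08 with the eyes of RM04 alone, against -0.10. The log2 difference of ZFHX3 between the tissues over the 4 locations was -0.03 with the eyes of RM03 alone, the reverse of 0.35 with all eyes, and the cause was not tested. The difference of the ZFHX4 gradients between the tissues was 4.79 with the eyes of RM03 alone, against 4.67. The nasal tissue difference of ZFHX4 ranged from 0.53 to 0.78 over the fits without an eye. With the eye as a block, from the pairing of libraries by eye, the ZFHX3 tissue difference over the locations was 0.35 (edgeR adjusted p = 0.00285), the ZFHX4 gradients were 2.96 in retina and -1.74 in RPE/choroid, and no call over the mean of locations changed. This block does not let the tissue difference vary between eyes. ZFHX2, at 202 to 1604 counts per library, is the gene whose small differences depth limits most.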
